A study of Mus musculus with 18 samples.

Results

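The genes described here are Saa1, Saa2, Saa3, Serpina3n, Steap4, Itih4, Fgl1, Crp, Hp and Hpx, a list of 10 acute phase genes of the mouse liver taken by symbol. Of these, 9 have a symbol among the 23930 genes of the deposited files, and Saa1 was not analysed here. All 9 passed the filter on low values, at least 1 CPM in at least 3 libraries. Saa3 is close to the low end, with 5 to 68 reads per library.

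The data are liver RNA of mice with floxed Yap alleles (Yap fl/fl), a background that all 6 groups share, controls included. At 8 weeks of age Yap KO mice received AAV-TBG-Cre, YAP OE mice AAV-TBG-YAP-P2A-EGFP and control mice AAV-TBG-GFP. TBG is a promoter active in hepatocytes, so that other liver cells were not targeted in any group. Each Yap KO mouse received 5e10 genome copies of its virus, against 2e11 in YAP OE and control mice. The diets began 2 weeks later, with 5 days of acclimation and then 4 weeks of Lieber-DeCarli liquid diet with ethanol (EtOH-fed) or without it (pair-fed). EtOH-fed mice ended on an oral dose of 5 g/kg ethanol (33% v/v), pair-fed mice on maltose-dextrin, and liver was taken 9 hours later. Each of the 6 groups has 3 libraries. The labels do not say that these are separate animals, so p-values measure the spread between libraries, part of which may be technical.

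Acute phase proteins are plasma proteins whose output by hepatocytes changes when tissue is injured or infected. Macrophages and other cells release interleukin 1, tumour necrosis factor and interleukin 6, and hepatocytes answer through NF-κB, C/EBP factors and STAT3, which bind the promoters of these genes. Serum amyloid A, carried on high density lipoprotein, is among the most inducible of them in the mouse, while C-reactive protein, a leading marker in humans, changes little in this species. Alcoholic liver injury is one of the settings in which liver and gut signals reach this programme.

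The letters that mark these pathways differ between the promoters. The 250 bases before the start site of 5 of the genes are shown because they carry the results below: the serum amyloid A genes, which the assay may not tell apart, and Crp and Steap4, which differed in opposite directions between YAP OE and Yap KO livers. Sequences are from RefSeq (GRCm38.p6), which matched 8 of the 10 genes, and Fgl1 and Hp are named only. Capitals mark matches on either strand to TTCNNNGAA (STAT3), TTNCNNAA (C/EBP) and GGGNNNNNCC (NF-κB), where N is any base and matches may overlap. Among 32851 promoters of this length, these letters occur in 7.02%, 36.8% and 45.8%.
Saa1 (chr7:46742981-46743230, minus strand): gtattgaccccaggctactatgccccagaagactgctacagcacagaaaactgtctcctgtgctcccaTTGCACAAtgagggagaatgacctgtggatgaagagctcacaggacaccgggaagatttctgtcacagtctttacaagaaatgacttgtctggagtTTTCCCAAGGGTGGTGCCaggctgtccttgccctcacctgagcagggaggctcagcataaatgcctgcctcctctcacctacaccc
Saa2 (chr7:46751583-46751832, plus strand): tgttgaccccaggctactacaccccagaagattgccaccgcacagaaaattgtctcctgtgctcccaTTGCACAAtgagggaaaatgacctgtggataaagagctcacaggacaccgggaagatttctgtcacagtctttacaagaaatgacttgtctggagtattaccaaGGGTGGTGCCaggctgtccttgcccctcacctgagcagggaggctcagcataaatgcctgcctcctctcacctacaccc
Saa3 (chr7:46715677-46715926, minus strand): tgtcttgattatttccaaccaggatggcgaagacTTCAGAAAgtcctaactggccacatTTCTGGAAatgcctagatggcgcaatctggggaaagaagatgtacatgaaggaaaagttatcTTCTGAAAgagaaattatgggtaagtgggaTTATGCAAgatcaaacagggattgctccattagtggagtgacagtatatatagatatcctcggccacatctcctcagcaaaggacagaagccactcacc
Crp (chr1:172697806-172698055, plus strand): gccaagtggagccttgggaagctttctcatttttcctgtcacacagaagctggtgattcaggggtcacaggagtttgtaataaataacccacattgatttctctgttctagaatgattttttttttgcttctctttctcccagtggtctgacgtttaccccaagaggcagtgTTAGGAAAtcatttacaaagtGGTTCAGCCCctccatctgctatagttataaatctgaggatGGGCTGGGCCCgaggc
Steap4 (chr5:7960222-7960471, plus strand): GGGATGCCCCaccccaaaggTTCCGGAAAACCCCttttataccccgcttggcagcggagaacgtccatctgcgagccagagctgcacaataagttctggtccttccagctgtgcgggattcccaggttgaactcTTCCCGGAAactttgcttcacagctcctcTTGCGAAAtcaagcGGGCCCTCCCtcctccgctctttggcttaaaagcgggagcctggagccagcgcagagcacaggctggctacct
The STAT3 letters are in the Steap4 window (TTCCCGGAA, from base -116 to base -108 before the start) and, among the other genes matched, in that of Itih4 (TTCCGAGAA, from -51 to -43). The Saa1 and Saa2 windows are alike at 238 of 249 aligned bases (95.6%), and both hold the C/EBP letters TTGCACAA and the NF-κB letters GGGTGGTGCC. The Saa3 window has 4 matches to the C/EBP letters and 0 to those of NF-κB. The Crp window has 1 match to the C/EBP letters, TTAGGAAA, and 3 to those of NF-κB, and the Steap4 window has 2 and 3. A match is a description of the letters and not evidence of a bound site.

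The libraries held 4.68 to 5.81 M reads (median 5.47 M), and levels are in CPM, reads scaled to the same total in every library. At this depth 1 read is worth 0.172 to 0.214 CPM, and the limit that a count of 0 allows, 3 reads, is 0.517 to 0.641 CPM, for counting error alone. The panel reads 1 amplicon per gene, so levels are compared between libraries and not between genes. Yap1 stood at 3.3 to 15.1 CPM in the 6 Yap KO libraries, at 57.6 to 214 CPM in the 6 YAP OE libraries and at 51.5 to 66.6 CPM in the 6 control libraries, so that pair-fed YAP OE replicate 1 (57.6 CPM) has no excess of Yap1. Xist stood at 348 to 423 CPM in all 3 pair-fed Yap KO libraries and in pair-fed control replicates 2 and 3, while each of the 13 other libraries had at most 2.75 CPM, with Y-linked Ddx3y at 54.0 to 128.8 CPM. The ethanol response of Yap KO mice therefore cannot be told apart from a difference in sex chromosome genes, and that of control mice is partly tied to it. The pair-fed comparisons of Yap KO or YAP OE with control mice, and the interactions against control mice, are partly tied to it as well. The interaction between YAP OE and Yap KO mice cannot be told apart from it, since only its pair-fed Yap KO libraries have Xist. The ethanol response of YAP OE mice and all comparisons among EtOH-fed groups are matched on the sex chromosome genes. Comparisons of Yap KO mice with the other genotypes also differ in virus dose (5e10 against 2e11 genome copies). Hepatocyte markers (6 of 6 with reads in each group) summed to 39176 to 75601 CPM. In bulk liver, fewer cells of a type and less RNA per cell cannot be told apart.

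Each gene was tested with limma on log2(CPM + 1) over all 18 libraries, and called at a Benjamini-Hochberg adjusted p under 0.05 over the 11720 genes kept. Changes are log2 fold changes ± SE on that scale. The 3 ethanol responses of each gene, the question of what ethanol does to these RNAs with YAP low, raised or untouched, come first below, and the genotypes on ethanol after them.

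**Figure D1:**
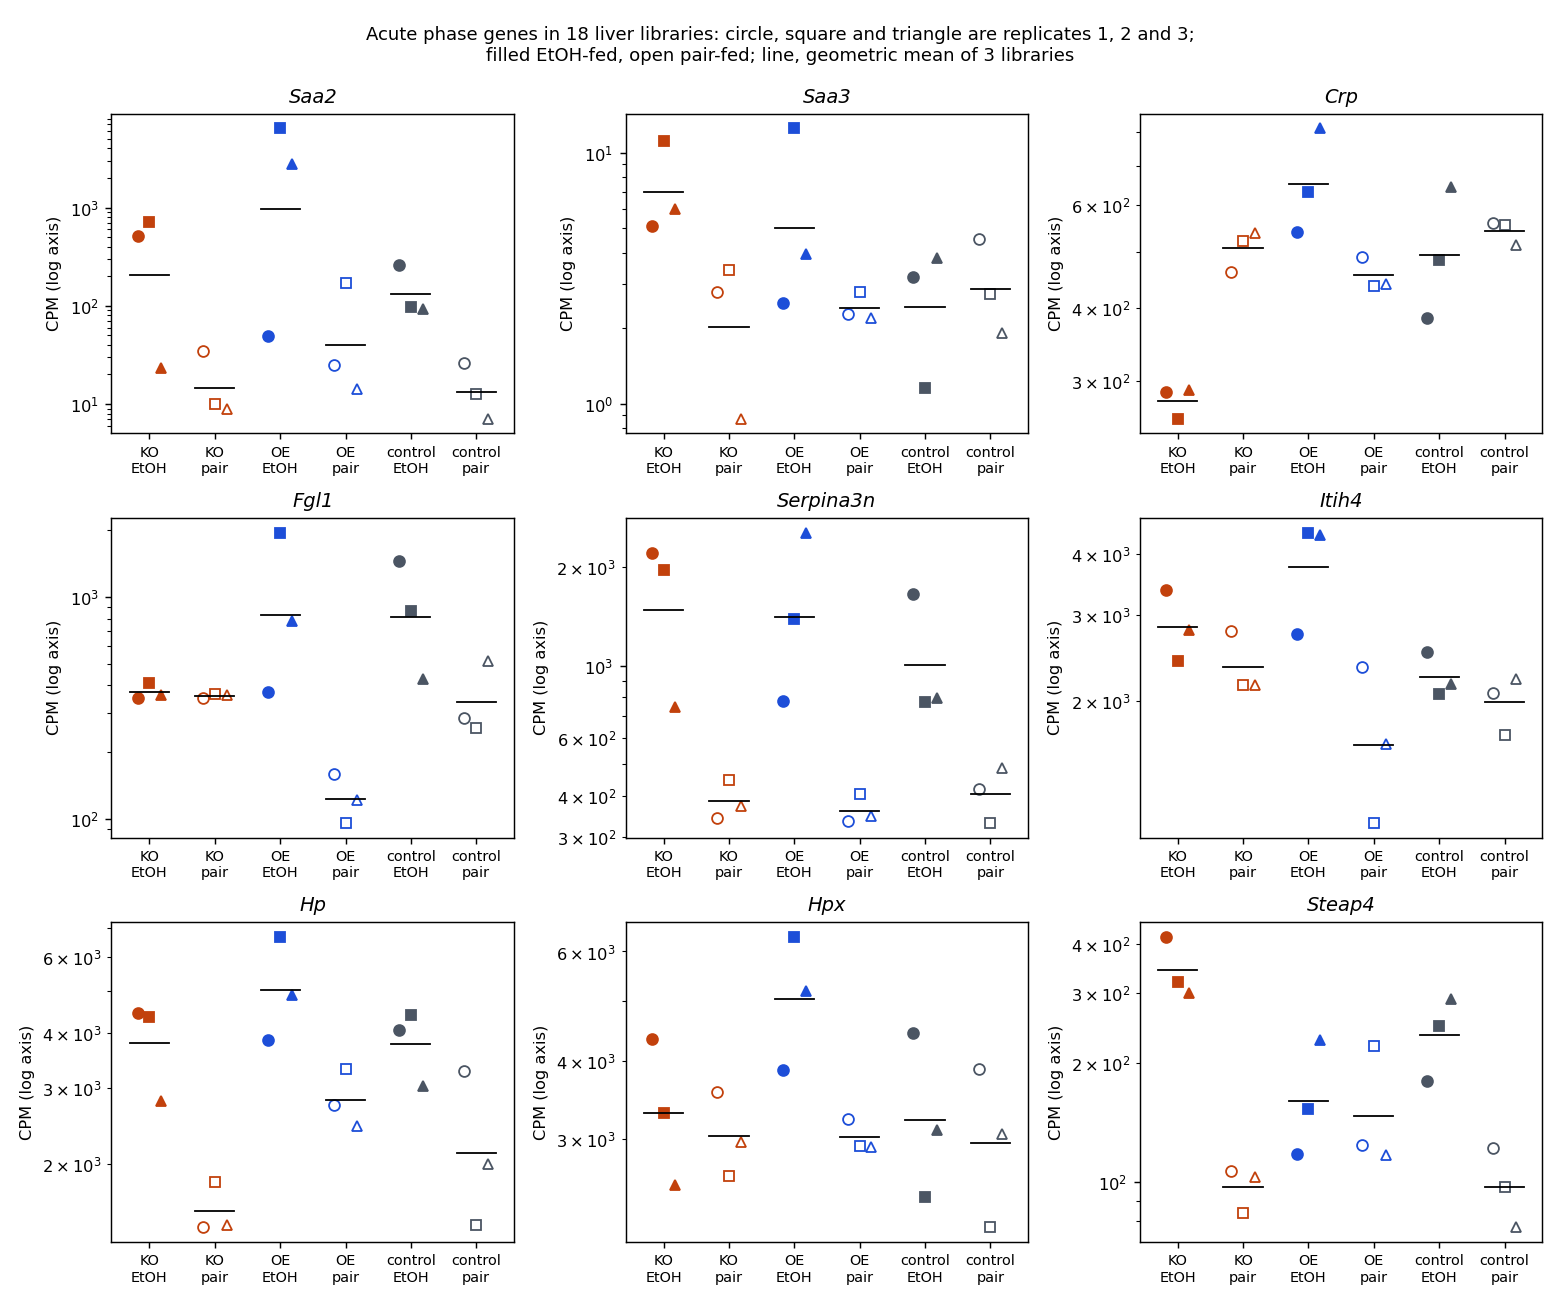
Level of each of the 9 measured genes in each of the 18 libraries, in CPM on a log axis, by group, where a symbol is 1 library and the line is the geometric mean of 3 libraries. Serpina3n is higher in all 9 EtOH-fed libraries (746 to 2544 CPM) than in all 9 pair-fed libraries (331 to 486 CPM), and Crp is lowest in the EtOH-fed Yap KO libraries (258 to 289 CPM).

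Saa2, a hepatocyte serum amyloid A, was the most variable of the 9 genes. It had 515.9, 718.3 and 23.0 CPM in EtOH-fed Yap KO livers, against 34.7, 10.0 and 8.88 CPM in pair-fed Yap KO livers. In YAP OE livers it had 49.3, 6395 and 2782 CPM on ethanol, against 25.0, 172.3 and 14.3 CPM pair-fed. In control livers it had 259.6, 96.8 and 92.8 CPM on ethanol, against 26.1, 12.8 and 7.08 CPM pair-fed. The groups do not overlap in control livers, and in Yap KO and YAP OE livers 1 EtOH-fed library of the 3 lies within the pair-fed range. In EtOH-fed YAP OE replicate 2, Saa2 took 34719 reads, or 0.640% of the library, and in replicate 1 of the same group 273 reads, a 130-fold span within 1 group. In the EtOH-fed Yap KO group the span was 31.2-fold. The residual SD within groups was 2.13 on the log2 scale, sixth largest among the 8457 genes with a mean of at least 5 CPM, whose median was 0.298.

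The ethanol responses of Saa2 were 3.72 ± 1.39 in Yap KO mice (adjusted p = 0.0938), 4.55 ± 1.39 in YAP OE mice (adjusted p = 0.114) and 3.21 ± 1.39 in control mice (adjusted p = 0.229). Each log2 change was large and 0 of 3 passed. One library decides 2 of these outcomes: without EtOH-fed Yap KO replicate 3 the value in Yap KO mice was 5.28 (adjusted p = 0.0209), and without EtOH-fed YAP OE replicate 1 the value in YAP OE mice was 6.69 (adjusted p = 0.00776). With edgeR on the recovered reads they were 4.59 (adjusted p = 0.0289) and 5.61 (adjusted p = 0.0482), and in a fit to the 6 control libraries alone the value was 3.21 (adjusted p = 0.0156). Summed neutrophil markers (10 in the panel, Mpo at 0 in every library) ranged from 4.69 to 20.8 CPM in EtOH-fed YAP OE livers against 1.14 to 2.61 CPM in pair-fed ones, with 6 of 10 having reads in each. None of those tested passed in YAP OE mice. The diets overlap in Yap KO livers (5.3 to 6.2 CPM on ethanol against 3.1 to 7.1 CPM pair-fed) and in control livers (1.7 to 40.8 CPM against 3.0 to 6.8 CPM). The part of these markers in the Saa2 result was not tested.

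The Saa2 amplicon may count RNA of both hepatocyte genes. RefSeq lists Saa1 and Saa2 as synonyms of each other, and their reference transcripts are alike at 572 of 606 aligned bases (94.4%), so the Saa2 values are uncertain as to which gene they come from. Saa3 is more distant, alike at 370 of 493 aligned bases to Saa2 (75.1%).

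Saa3, which in mice is made by macrophages and fat cells as well as by injured hepatocytes, was near the lower limit of measurement. It had 5.13, 11.1 and 5.98 CPM in EtOH-fed Yap KO livers, against 2.80, 3.42 and 0.871 CPM in pair-fed Yap KO livers, and the groups do not overlap. In YAP OE livers it had 2.53, 12.5 and 3.96 CPM on ethanol, against 2.27, 2.78 and 2.20 CPM pair-fed, and EtOH-fed replicate 2, the library with the most Saa2, was also the highest here. Control livers had 3.21, 1.16 and 3.82 CPM on ethanol, against 4.55, 2.74 and 1.91 CPM pair-fed, and overlap. The log2 changes were 1.35 ± 0.45 in Yap KO mice (adjusted p = 0.0646), 0.86 ± 0.45 in YAP OE mice (adjusted p = 0.404) and -0.16 ± 0.45 in control mice (adjusted p = 0.897), and none passed, while TMM scaling gave 1.40 in Yap KO mice (adjusted p = 0.0481). Summed Kupffer cell and macrophage markers ran the other way in Yap KO livers, at 166 to 213 CPM on ethanol against 477 to 592 CPM pair-fed (9 of 10 markers with reads in each). Of the 9 tested 8 fell, where 5.79% of all genes were called lower. Among the 8 were Vsig4 (-1.70 ± 0.24, adjusted p = 0.000406), Csf1r (-1.72 ± 0.29, adjusted p = 0.00146), Cd5l (-1.36 ± 0.24, adjusted p = 0.00219) and Clec4f (-1.34 ± 0.26, adjusted p = 0.00321). These falls cannot be told apart from a difference in sex chromosome genes, since the pair-fed Yap KO libraries have Xist and the EtOH-fed ones do not. The 5 fat cell markers summed to at most 2.08 CPM in a library, with Adipoq and Lep at 0 in all 18, Cfd with reads in 4 (at most 1.89 CPM), Retn in 2 and Plin1 in 1. The part of either list in the Saa3 values was not tested.

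Crp, the pentraxin C-reactive protein, fell with ethanol in Yap KO livers. It had 286.8, 258.5 and 289.0 CPM in EtOH-fed Yap KO livers, against 461.2, 522.2 and 538.5 CPM in pair-fed Yap KO livers. In YAP OE livers it had 540.8, 633.1 and 813.1 CPM on ethanol, against 490.1, 436.8 and 440.6 CPM pair-fed, and in control livers 384.8, 483.6 and 644.4 CPM on ethanol, against 559.2, 555.8 and 512.2 CPM pair-fed. The diets do not overlap in Yap KO or in YAP OE livers, where they lie in opposite orders, and overlap in control livers. The log2 change was -0.86 ± 0.18 in Yap KO mice (adjusted p = 0.00625), 0.52 ± 0.18 in YAP OE mice (adjusted p = 0.185) and -0.14 ± 0.18 in control mice (adjusted p = 0.742). Since all 3 pair-fed Yap KO libraries have Xist and the EtOH-fed ones do not, the fit was repeated with Xist status (present or not) as a term, and gave -0.93 in Yap KO mice (adjusted p = 0.575). Only the pair-fed control group holds libraries of both kinds (replicate 1 without Xist, replicates 2 and 3 with it), so that term rests on these 3 libraries. A call lost with that term, here and below, cannot decide whether the change goes with Xist status. Crp was also among the steadier genes, with a residual SD of 0.21 on the log2 scale, larger than that of 17.3% of the genes compared.

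Fgl1, a fibrinogen-like protein secreted by hepatocytes, rose in YAP OE livers. It had 374.1, 1955 and 782.3 CPM in EtOH-fed YAP OE livers, against 159.4, 95.5 and 121.6 CPM in pair-fed YAP OE livers, with no overlap. The log2 change was 2.75 ± 0.45 (adjusted p = 0.00549), stayed called with each library of either group left out (2.13 to 3.32), and was 1.23 to 4.34 within the 3 barcode ranges, each holding 1 library of both groups. Pair-fed YAP OE livers lie below pair-fed controls (285.5, 256.0 and 516.6 CPM) without overlap, although that difference did not pass (-1.44 ± 0.45, adjusted p = 0.302). It is partly tied to the sex chromosome genes, since control replicates 2 and 3 have Xist and the pair-fed YAP OE libraries do not. In Yap KO livers Fgl1 had 348.9, 411.2 and 361.5 CPM on ethanol, against 350.3, 366.2 and 361.1 CPM pair-fed, a log2 change of 0.05 ± 0.45 (95% interval -0.90 to 1.00). Control livers had 1461, 867.1 and 427.0 CPM on ethanol, and the change there was 1.28 ± 0.45 (adjusted p = 0.135).

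Serpina3n, an inhibitor of serine proteases, separated the diets in every genotype. It had 2206, 1952 and 746.1 CPM in EtOH-fed Yap KO livers, against 343.0, 448.5 and 373.3 CPM in pair-fed Yap KO livers. It had 778.6, 1390 and 2544 CPM in EtOH-fed YAP OE livers, against 334.9, 405.4 and 347.6 CPM in pair-fed YAP OE livers, and 1656, 773.8 and 796.9 CPM in EtOH-fed control livers, against 419.9, 331.2 and 485.6 CPM in pair-fed control livers. The lowest of the 9 EtOH-fed libraries (746 CPM) is above the highest of the 9 pair-fed libraries (486 CPM), and the pair-fed libraries with Xist (331 to 486 CPM) cover those without it (335 to 420 CPM). The log2 change was 1.93 ± 0.39 in Yap KO mice (adjusted p = 0.00499), 1.95 ± 0.39 in YAP OE mice (adjusted p = 0.0207) and 1.30 ± 0.39 in control mice (adjusted p = 0.0852). In YAP OE mice the call is lost without pair-fed replicate 1, whose Yap1 lies at the control level (1.90, adjusted p = 0.081), without pair-fed replicate 3 (1.92, adjusted p = 0.0867), and without EtOH-fed replicate 2 (1.96, adjusted p = 0.0818) or 3 (1.52, adjusted p = 0.128). With Xist status as a term the change in Yap KO mice was 1.87 (adjusted p = 0.585). Serpina3n belongs to a cluster of near copies, and whether reads are shared was not tested. In Yap KO mice Serpina3k rose (1.71 ± 0.48, adjusted p = 0.0307), while Serpina3f was at 0.15 ± 0.48 (adjusted p = 0.872) and Serpina3g at -0.13 ± 0.38 (adjusted p = 0.861). In control mice Serpina3k was at 0.45 ± 0.48 (adjusted p = 0.677).

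Itih4, a heavy chain of the inter-alpha-trypsin inhibitor family, rose in YAP OE livers. It had 2744, 4422 and 4365 CPM in EtOH-fed YAP OE livers, against 2349, 1130 and 1641 CPM in pair-fed YAP OE livers, without overlap, and the log2 change was 1.2 ± 0.25 (adjusted p = 0.0271). That call is lost without pair-fed replicate 2 (0.94, adjusted p = 0.101) or 3 (1.2, adjusted p = 0.0927), or EtOH-fed replicate 2 (1.08, adjusted p = 0.113) or 3 (1.09, adjusted p = 0.128). Without pair-fed replicate 1 it was 1.46 (adjusted p = 0.0209). In Yap KO livers the diets overlap (2423 to 3374 CPM on ethanol against 2161 to 2787 CPM pair-fed), as they do in control livers (2070 to 2522 CPM against 1709 to 2218 CPM).

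Haptoglobin and hemopexin scavenge the products of broken red cells. Haptoglobin (Hp) binds free haemoglobin, and Hp had 4463, 4367 and 2798 CPM in EtOH-fed Yap KO livers, against 1428, 1817 and 1447 CPM in pair-fed Yap KO livers (1.29 ± 0.29, adjusted p = 0.0086). In YAP OE livers it had 3864, 6686 and 4916 CPM on ethanol, against 2729, 3315 and 2448 CPM pair-fed (0.84 ± 0.29, adjusted p = 0.164), again without overlap, and in control livers 4073, 4420 and 3022 CPM on ethanol, against 3277, 1445 and 1998 CPM pair-fed (0.84 ± 0.29, adjusted p = 0.124). Among the pair-fed libraries, the 5 with Xist had 1428 to 1998 CPM of Hp and the 4 without it 2448 to 3315 CPM. The 5 are the Yap KO libraries and control replicates 2 and 3, and the 4 are the YAP OE libraries and control replicate 1. The split by Xist is therefore largely one of genotype too, and these cannot be told apart. With Xist status as a term the change in Yap KO mice was 0.34 (adjusted p = 0.92). Hemopexin (Hpx), which binds free heme, had 3877, 6335 and 5194 CPM in EtOH-fed YAP OE livers, against 3234, 2929 and 2915 CPM in pair-fed YAP OE livers, without overlap and without passing (0.74 ± 0.28, adjusted p = 0.209). It changed by 0.12 ± 0.28 in Yap KO mice (adjusted p = 0.817) and by 0.12 ± 0.28 in control mice (adjusted p = 0.858). The receptors that clear the complexes are Cd163 on macrophages, with log2 changes of -0.04 ± 0.43 in Yap KO mice (adjusted p = 0.963), 0.29 ± 0.43 in YAP OE mice (adjusted p = 0.816) and -0.25 ± 0.43 in control mice (adjusted p = 0.814), and Lrp1, which fell in Yap KO mice (-0.82 ± 0.21, adjusted p = 0.0207). Hmox1, the enzyme that breaks down heme, rose in control mice (2.45 ± 0.40, adjusted p = 0.00336), and on ethanol it was lower in Yap KO livers (22.6 to 50.4 CPM) than in control livers (96.2 to 350 CPM), by -2.54 ± 0.40 (adjusted p = 0.0241). EtOH-fed YAP OE livers, at 41.2 to 52.5 CPM, also lay below the control livers, so a low Hmox1 is not particular to Yap KO. Its ethanol response in YAP OE mice was 0.30 ± 0.40 (adjusted p = 0.793).

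Steap4, a membrane enzyme that reduces iron and copper, rose in Yap KO and in control livers. It had 416.5, 321.0 and 300.2 CPM in EtOH-fed Yap KO livers, against 106.6, 83.5 and 103.1 CPM in pair-fed Yap KO livers (1.81 ± 0.27, adjusted p = 0.000532). In control livers it had 179.9, 248.4 and 289.6 CPM on ethanol, against 122.3, 97.3 and 77.1 CPM pair-fed (1.26 ± 0.27, adjusted p = 0.0158). In YAP OE livers it had 117.9, 153.3 and 228.7 CPM on ethanol, against 124.0, 221.0 and 117.0 CPM pair-fed, and these overlap (0.12 ± 0.27, adjusted p = 0.889, 95% interval -0.45 to 0.69). The 5 pair-fed libraries with Xist had 77.1 to 107 CPM and the 4 without it 117 to 221 CPM, a split that, as for Hp, is largely one of genotype too. With Xist status as a term the change was 1.31 in Yap KO mice (adjusted p = 0.568) and 0.93 in control mice (adjusted p = 0.367). Leaving out 1 library also ended the call in control mice, for pair-fed control replicate 2 (1.26, adjusted p = 0.0532) or 3 (1.10, adjusted p = 0.0699) and for EtOH-fed control replicate 2 (1.22, adjusted p = 0.0746) or 3 (1.11, adjusted p = 0.0649).

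**Figure D2:**
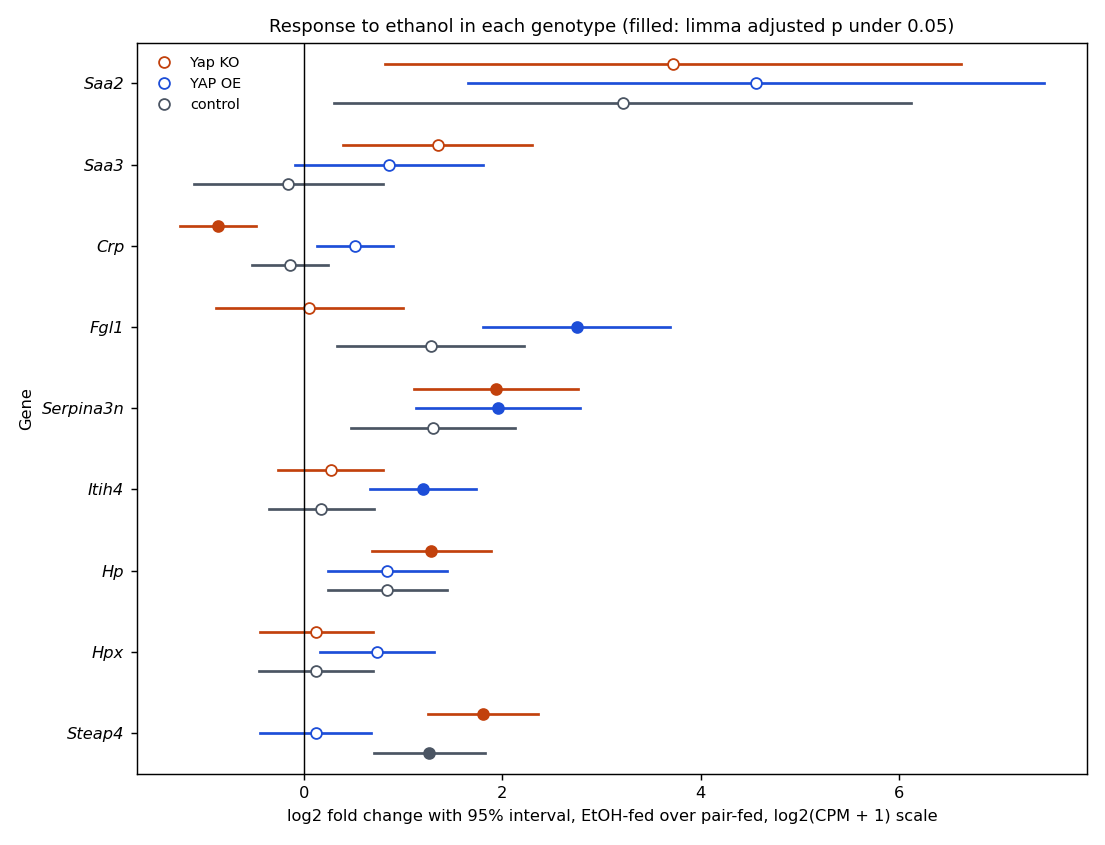
Log2 fold change of EtOH-fed over pair-fed livers with its 95% interval for each gene (rows) in Yap KO, YAP OE and control mice, where a filled point passed the threshold. Serpina3n passed in Yap KO and YAP OE mice, Fgl1 and Itih4 in YAP OE mice, Hp in Yap KO mice, Steap4 in Yap KO and control mice, and Crp in Yap KO mice with a negative value (-0.86).

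Counted together, 4 of the 9 genes passed in Yap KO mice (3 higher, 1 lower), where 9.9% of all genes tested passed (4.1% higher, 5.79% lower). In YAP OE mice 3 of 9 passed, all higher, where 1.15% of all genes passed (0.401% higher). In control mice 1 of 9 passed, higher, where 2.7% passed (1.02% higher). With edgeR 5, 4 and 2 of the 9 passed in these 3 responses, where 10.8%, 1.14% and 2.43% of all genes passed. The EtOH-fed libraries all lay above the pair-fed ones for 4 of 9 genes in Yap KO mice, as for 11.7% of all genes, and below them for Crp, as for 16.9%. They lay above for 6 of 9 genes in YAP OE mice, as for 7.83% of all genes, and for 3 of 9 in control mice, as for 7.69%. The balance of all calls depends on scaling: with TMM factors 687 genes were higher and 568 lower in Yap KO mice, against 481 and 679 without them, 78 and 51 in YAP OE mice, against 47 and 88, and 172 and 120 in control mice, against 120 and 196. The median log2 change of the 9 genes was 1.29 in Yap KO mice, 0.86 in YAP OE mice and 0.84 in control mice, beside -0.05, -0.07 and -0.09 for all genes. Averaged over the 3 genotypes, 6 of 9 passed (Saa2 3.83 ± 0.80, Fgl1 1.36 ± 0.26, Serpina3n 1.73 ± 0.23, Itih4 0.55 ± 0.15, Hp 0.99 ± 0.17 and Steap4 1.06 ± 0.15), where 20.5% of all genes passed (7.21% higher, with 1298 higher and 1108 lower genes under TMM, against 845 and 1561). The averaged response mixes libraries with and without Xist. With Xist status as a term 0 of 9 passed. Among the 13 libraries without Xist, 1 common ethanol term rests on YAP OE (3 EtOH-fed against 3 pair-fed) and control mice (3 against 1) alone, since no pair-fed Yap KO library is without Xist. In that fit Fgl1 (2.34 ± 0.41, adjusted p = 0.00594) and Serpina3n (1.72 ± 0.35, adjusted p = 0.0161) passed, where 2.82% of all genes passed. There Saa2 was at 3.80 ± 1.22 (adjusted p = 0.101) and Steap4 at 0.39 ± 0.24 (adjusted p = 0.417).

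The libraries of a group did not move alike. In EtOH-fed YAP OE livers, replicate 1 was the lowest of the 3 libraries for all 9 genes. In EtOH-fed Yap KO livers, replicate 3 was the lowest for 5 of 9 (Saa2, Serpina3n, Hp, Hpx and Steap4). Over the 18 libraries, Pearson's r of log2(CPM + 1) was 0.84 between Saa2 and Hp and 0.83 between Saa2 and Serpina3n, but 0.02 between Saa2 and Crp and -0.47 between Steap4 and Crp. These values share diet, genotype and library, and are descriptions.

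**Figure D3:**
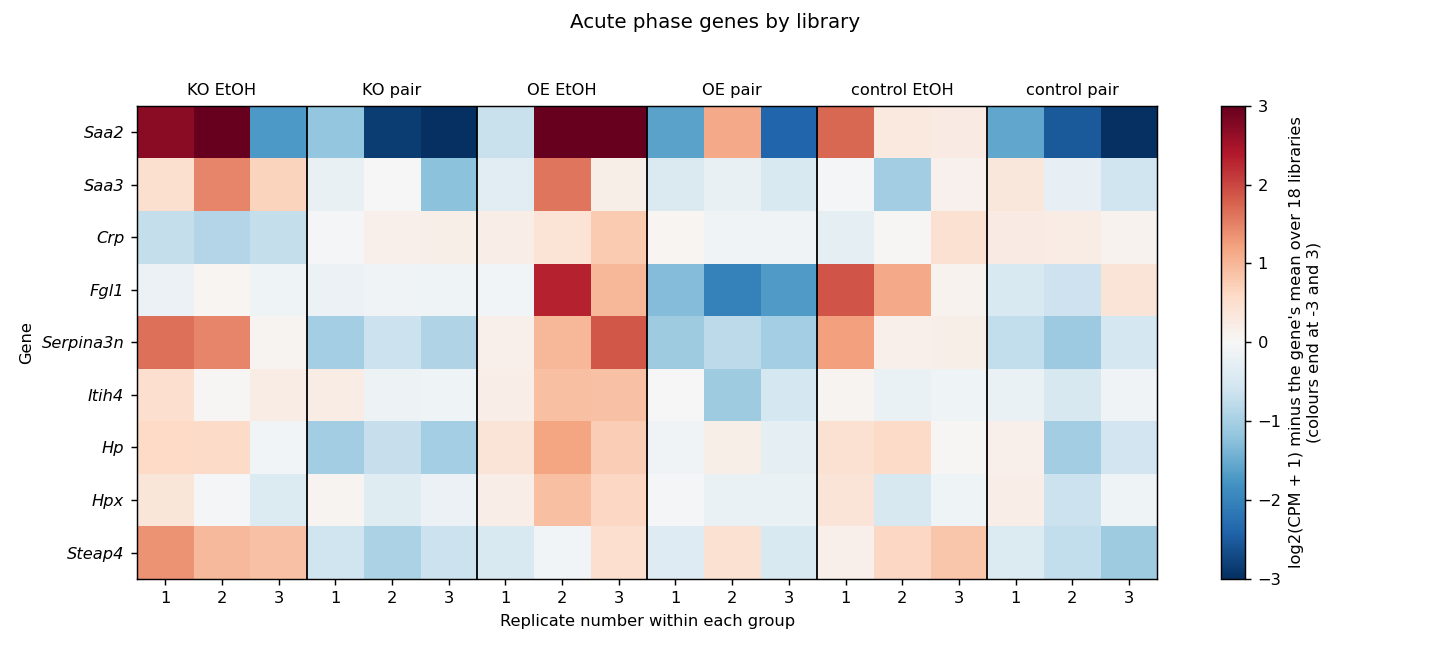
Log2(CPM + 1) of each gene (rows) in each library (columns) minus its mean over the 18 libraries, red above and blue below, with colours ending at -3 and 3. In the EtOH-fed YAP OE group the first column is lowest for all 9 genes, and the Crp row is blue in the 3 EtOH-fed Yap KO libraries where the Steap4 row is red.

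The question of whether YAP changes these RNAs on ethanol is addressed by the 3 EtOH-fed groups, which are matched on the sex chromosome genes. They are not matched on virus dose, which was lower in Yap KO mice and cannot be told apart from that genotype. In YAP OE against Yap KO livers 2 of 9 genes passed, where 1.88% of all genes passed (0.529% higher, 1.35% lower), and with edgeR 1 of 9, where 1.86% passed. Crp was higher in YAP OE livers by 1.23 ± 0.18 (adjusted p = 0.0023), with every YAP OE library (541 to 813 CPM) above every Yap KO library (258 to 289 CPM), an order that 8.94% of all genes share, and the difference was 0.91 to 1.49 within the 3 barcode ranges. It stayed called without each of the 6 libraries (1.07 to 1.37). Steap4 was lower in YAP OE livers by -1.09 ± 0.27 (adjusted p = 0.0408), with YAP OE libraries at 118 to 229 CPM below Yap KO libraries at 300.2 to 416.5 CPM, an order shared by 12.5% of all genes. The Steap4 call was lost without EtOH-fed Yap KO replicate 1 (-0.95, adjusted p = 0.151) or 2 (-1.13, adjusted p = 0.0982), without EtOH-fed YAP OE replicate 1 (-0.87, adjusted p = 0.163) or 2 (-1.06, adjusted p = 0.138), and with edgeR (-1.0, adjusted p = 0.0543). Saa2 was at 2.22 ± 1.39 (95% interval -0.69 to 5.12), and Serpina3n at -0.07 ± 0.39 (95% interval -0.90 to 0.75).

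Summed Kupffer cell and macrophage markers stood at 375 to 406 CPM in EtOH-fed YAP OE livers and 166 to 213 CPM in EtOH-fed Yap KO livers, with 9 of 10 having reads in each. Among them Cd5l was called higher (1.10 ± 0.24, adjusted p = 0.0223). Their part in the Crp and Steap4 differences was not tested.

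Neither YAP OE nor Yap KO livers differed from control livers by a called member on either diet. On ethanol, Yap KO against control called 0 of 9 with limma and 0 with edgeR (3 at an unadjusted p under 0.05, as for 8.34% of all genes, while limma called 0.0171% and edgeR 0.0256% of them). These 3 were Saa3 at 1.19 ± 0.45 (adjusted p = 0.524), with 5.13 to 11.1 CPM in Yap KO and 1.16 to 3.82 CPM in control livers, Crp at -0.83 ± 0.18 (adjusted p = 0.168), with 258 to 289 CPM in Yap KO and 385 to 644 CPM in control livers, and Fgl1 at -1.13 ± 0.45 (adjusted p = 0.528), with 349 to 411 CPM in Yap KO and 427 to 1461 CPM in control livers, each without overlap. Of the 9 genes, 2 lay below control livers in every Yap KO library (5.21% of all genes) and 2, Saa3 and Steap4, above (8.23%). Without EtOH-fed control replicate 1, Crp was at -1.0 (adjusted p = 0.0486). YAP OE against control on ethanol called 0 of 9 with limma and 0 with edgeR (3 at an unadjusted p under 0.05, as for 8.84% of all genes, while limma called 0.102% and edgeR 0.119%). Saa2 was at 2.85 ± 1.39 (adjusted p = 0.572), and Itih4 at 0.74 ± 0.25 (adjusted p = 0.32) was the 1 gene with every YAP OE library above every control library, as for 7.43% of all genes. Pair-fed, Yap KO against control called 0 of 9 with either tool (0 at an unadjusted p under 0.05, as for 3.13% of all genes, while each tool called 0.00853%), and YAP OE against control called 0 of 9 with either tool (2 at an unadjusted p under 0.05, as for 8.46% of all genes, while limma called 0.145% and edgeR 0.247%). Crp and Fgl1 lay below the control livers in all 3 pair-fed YAP OE libraries, as did 7.57% of all genes. These intervals are wide, such as -2.27 to 3.54 for Saa2 in EtOH-fed Yap KO against control livers, so similar levels are not shown.

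**Figure D4:**
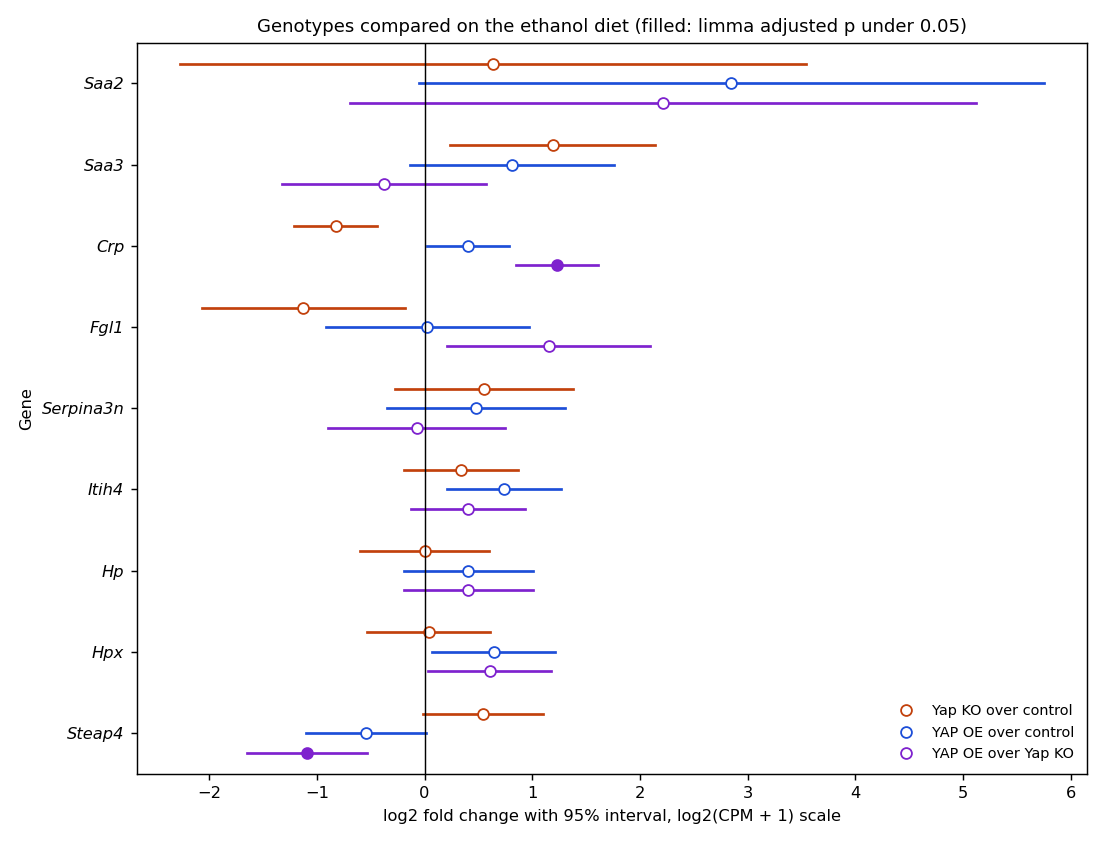
Log2 fold change with its 95% interval for each gene (rows) between genotypes on the ethanol diet, where a filled point passed the threshold. Crp (1.23) and Steap4 (-1.09) passed in YAP OE over Yap KO livers, and all 9 genes are open points in both comparisons with control.

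Whether the ethanol response itself differed between genotypes was tested as an interaction. Against control the interaction called 0 of 9 genes in Yap KO mice with limma and 0 with edgeR (2 at an unadjusted p under 0.05, as for 5.68% of all genes) and 0 of 9 in YAP OE mice with limma and 0 with edgeR (4 at an unadjusted p under 0.05, as for 7.23%), where 0% of all genes passed in each. Between YAP OE and Yap KO mice, a contrast chosen after the values were seen, 3 of 9 passed, where 1.05% of all genes passed (0.41% higher, 0.64% lower). The responses differed by 1.38 ± 0.26 for Crp (adjusted p = 0.0127), 2.69 ± 0.64 for Fgl1 (adjusted p = 0.0448) and -1.68 ± 0.38 for Steap4 (adjusted p = 0.037). Crp stayed called without the filter on low values (adjusted p = 0.0296), with the barcode range as a block (adjusted p = 0.0147) and without each of the 12 libraries (1.23 to 1.52). Fgl1 was not called without the filter (adjusted p = 0.115), with that block (adjusted p = 0.0519) or with TMM (adjusted p = 0.0503), and lost its call when 11 of the 12 libraries were left out in turn (2.08 to 2.88), all but EtOH-fed YAP OE replicate 1 (3.27, adjusted p = 0.0143). Steap4 was not called without the filter (adjusted p = 0.0863) or with that block (adjusted p = 0.0525), and leaving out 1 library ended its call for 9 of the 12, with a range of -1.94 to -1.39 over all 12. The exceptions were EtOH-fed Yap KO replicate 3 and YAP OE replicate 3 of either diet. Of the Kupffer cell and macrophage markers, Vsig4 (1.74 ± 0.34, adjusted p = 0.0192), Marco (2.99 ± 0.67, adjusted p = 0.037) and Timd4 (1.76 ± 0.40, adjusted p = 0.0415) passed in the same contrast, and their part in it was not tested. Of the groups in that contrast only pair-fed Yap KO livers have Xist, so it cannot be told apart from a difference in sex chromosome genes. With Xist status as a term none of the 3 members passed (1.45, 2.35 and -1.19, adjusted p = 0.428, 0.849 and 0.917).

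The genes upstream were measured in the same libraries. With Xist status as a term 0 of all genes passed in Yap KO mice and 23 in control mice, against 1160 and 316 without it, so that every Yap KO call in the lists that follow is lost with that term. Of 10 cytokine genes of the pathway in the panel, 3 passed the filter, and Il6 had reads in 2 of 18 libraries, at most 0.193 CPM, under the limit of 3 reads. Il1b, interleukin 1 beta, rose in control mice (1.78 ± 0.40, adjusted p = 0.0204). Of 11 receptors and kinases tested, 0 passed in YAP OE and 0 in control mice, and Jak2 fell in Yap KO mice (-0.92 ± 0.26, adjusted p = 0.0315). The receptor chain Il6st changed by 0.01 ± 0.17 in Yap KO mice (adjusted p = 0.97) and by 0.18 ± 0.17 in YAP OE mice (adjusted p = 0.677). Of 9 transcription factors tested, Stat3 rose in Yap KO (0.87 ± 0.19, adjusted p = 0.00808) and control mice (1.22 ± 0.19, adjusted p = 0.00253), and was at 0.70 ± 0.19 in YAP OE mice (adjusted p = 0.0787). In Yap KO mice the NF-κB subunit Rela rose (1.06 ± 0.26, adjusted p = 0.014) and Cebpa, a C/EBP factor of mature hepatocytes, fell (-0.90 ± 0.26, adjusted p = 0.0327). Of 9 feedback and early response genes tested, the AP-1 subunit Junb rose in Yap KO (1.89 ± 0.44, adjusted p = 0.0106) and control mice (2.10 ± 0.44, adjusted p = 0.0143).

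The other acute phase genes followed the ethanol diet in part. Of 18 other positive acute phase genes tested, 3 rose in Yap KO, 4 in YAP OE and 2 in control mice, and 0 fell, where 4.1%, 0.401% and 1.02% of all genes rose. Lcn2, the iron-binding lipocalin 2, rose by 5.48 ± 0.86 in Yap KO mice (adjusted p = 0.000836) by 4.81 ± 0.86 in YAP OE mice (adjusted p = 0.0118) and by 4.57 ± 0.86 in control mice (adjusted p = 0.00934). Orm3, an orosomucoid gene, rose by 2.23 ± 0.59 in Yap KO mice (adjusted p = 0.021), by 2.66 ± 0.59 in YAP OE mice (adjusted p = 0.0338) and by 2.60 ± 0.59 in control mice (adjusted p = 0.0213). Orm1, an orosomucoid that binds drugs and lipids, rose by 1.67 ± 0.31 in YAP OE mice (adjusted p = 0.0126), as did Orm2 by 3.01 ± 0.72 (adjusted p = 0.0475). Fgg, the fibrinogen gamma chain, rose by 1.22 ± 0.35 in Yap KO mice (adjusted p = 0.0315). The median of the 18 was 0.54 in Yap KO, 1.02 in YAP OE and 0.65 in control mice. Of 11 negative acute phase genes, whose output falls in inflammation, Serpina6, the carrier of glucocorticoids (-1.54 ± 0.37, adjusted p = 0.0131), and Ttr, the carrier of thyroxine and retinol-binding protein (-0.79 ± 0.21, adjusted p = 0.0196), fell in Yap KO mice, where 5.79% of all genes were called lower. Serpina7 (0.87), Ahsg (0.39), Rbp4 (0.16) and Apoa1 (0.02) were positive there, the others negative, and none of these passed. None of the 11 passed in YAP OE or in control mice with limma. Itih2, another inter-alpha-trypsin inhibitor heavy chain, rose in Yap KO mice (0.54 ± 0.17, adjusted p = 0.0471). Among 6 sinusoidal endothelial markers, Lyve1 rose in Yap KO (1.84 ± 0.48, adjusted p = 0.0198) and control mice (2.45 ± 0.48, adjusted p = 0.0107), where Pecam1 rose (0.78 ± 0.20, adjusted p = 0.0421) and Dnase1l3 fell (-0.87 ± 0.17, adjusted p = 0.0105). In Yap KO mice Pecam1 was at 0.27, while Stab2 (-0.49), Clec4g (-0.33), Kdr (-0.69) and Dnase1l3 (-0.48) were negative, and none of these passed. In control mice Stab2 (-0.45), Clec4g (-0.74) and Kdr (-0.83) were negative and did not pass. The summed markers overlap between the diets in Yap KO livers (247 to 386 CPM on ethanol against 360 to 373 CPM pair-fed).

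By Pearson's r over the 18 libraries, among genes with a mean of at least 5 CPM, the genes most like Serpina3n were Fgg (0.93), Lcn2 (0.91) and Naa15 (0.89). Those most like Saa2 were Srp19 (0.88), Lcn2 (0.87) and Rpl7l1 (0.86), and those most like Steap4 were Tanc1 (0.96), Dusp8 (0.94) and Tmem82 (0.92). Crp was most like Vmo1 (0.86), Wfdc21 (0.80) and Pigr (0.80), 3 genes that are in no list above. The first gene for Fgl1 and the second for Itih4 was Orm1, at 0.83 with Fgl1.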

How the data were processed

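Liver RNA was read with the Ion AmpliSeq mouse transcriptome panel, per the labels' protocols. In the deposited series table the authors give CPM, reads of a gene per library total, and the per-library files hold log2(RPM + 1), per the file headers, made with ampliSeqRNA 5.10.1.2 per the submitters' processing notes. No aligner or build is named by the labels or headers used here, and CPM does not correct for a few genes taking many reads. Of the deposited CPM values, 100% were whole numbers of reads within 0.02 reads, so edgeR 4.0.16 (quasi-likelihood, TMM) was run on the recovered reads as an alternative.

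In limma 3.58.1 (R 4.3.3, lmFit and eBayes with trend), 1 mean per group was fitted to log2(CPM + 1) with a pseudocount of 1 CPM, and p-values are two-sided. In the ethanol responses of Yap KO, YAP OE and control mice edgeR called 1264, 134 and 285 genes, against 1160, 135 and 316 with limma. Libraries were grouped by their labels, and no 2 held the same values. Named genes are the listed members, Yap1, up to 4 called members of each pathway or marker list with the smallest adjusted p (those called in the averaged response alone are not named), and the 3 most alike genes of each member; Il6, Il6st, Cd163, Serpina3f, Serpina3g and the sex chromosome genes are named outside this rule. The members and lists were chosen with earlier results of these data known. Alternatives were the filter, pseudocount, scaling, tool, blocks, Xist status as a term and leaving out each library. The procedure was tested on simulated data.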

Additional observations from a re-analysis of the deposited data

Results flagged for a closer look

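The ethanol response differed between YAP OE and Yap KO mice by a test of the difference itself for Crp (1.38 on the log2 scale), Fgl1 (2.69) and Steap4 (-1.68), as limma interactions. The contrast was chosen after the values were seen. All 3 pair-fed Yap KO libraries have Xist, and the other groups of this contrast do not. The differences therefore cannot be told apart from one in sex chromosome genes. Of the pair-fed control libraries 2 also have Xist, and with Xist status as a term 0 of the 3 genes passed. That term rests on the pair-fed control group alone and cannot decide whether the differences go with Xist status. The Crp call held without the filter, with the barcode range block and without each of the 12 libraries, while those of Fgl1 and Steap4 were lost without the filter, with the block and without 11 and 9 of the 12 libraries. Crp also moved in opposite ways with every library on one side, at -0.86 in Yap KO mice (called) and 0.52 in YAP OE mice (adjusted p = 0.185, not called). Among the EtOH-fed groups, Crp passed in YAP OE against Yap KO livers and in neither comparison with control livers. No cause was tested.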

How the results depend on the processing

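No direction of a called change reversed under the alternatives run. With Xist status as a term the members called were 0 in Yap KO mice, 0 in control mice, 0 averaged over the genotypes and 0 in the interaction between YAP OE and Yap KO, and over all genes 0, 23, 86 and 1, against 1160, 316, 2406 and 123. Only the pair-fed control group holds libraries with and without Xist, so that term rests on this group and cannot decide whether the changes go with Xist status. A common ethanol term in the libraries without Xist, which holds YAP OE and control mice only and is no average over the 3 genotypes, called 2. Without the filter it was 1 in YAP OE mice, 1 in YAP OE against Yap KO and 1 in their interaction. With edgeR it was 2 in control mice and 1 in YAP OE against Yap KO, and with the compared libraries alone 2 in control mice. With the replicate block the count was 1 in YAP OE against Yap KO and 1 in the interaction, where Fgl1 (adjusted p = 0.0662) and Steap4 (adjusted p = 0.0508) were no longer called, and the barcode range block gave 1 and 1. Both blocks divide the Yap KO and YAP OE libraries alike, so they are not separate checks. No pairing by replicate number was seen, with deviations of same-numbered libraries correlated at -0.27 to 0.28 (median 0.03) over 45 pairs of libraries. Each deviation is from a mean of 3 libraries, so these values cannot exclude a pairing. Leaving out 1 library gave 4 to 5 members called in Yap KO mice, 1 to 4 in YAP OE mice, 0 to 2 in control mice, 6 to 7 averaged, 0 to 1 in Yap KO against control on ethanol, 1 to 2 in YAP OE against Yap KO and 1 to 2 in the interaction. The causes were not tested. With TMM the ethanol calls of YAP OE mice split into 78 higher and 51 lower genes, against 47 and 88. Depth limits Saa3, at 5 to 68 reads.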
